A study of Canis lupus familiaris with 5 samples.

Results

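Blood vessels of the heart are lined by endothelial cells and wrapped by smooth muscle cells, and each of these cell types has genes by which it is commonly recognised. The genes described here are 3 endothelial markers, AQP1, CDH5 and VWF, and 2 smooth muscle markers, TAGLN and LMOD1, in failing and control dog heart muscle. They are 5 of 2416 genes with a probe set of their own, and were taken as every probe set whose only gene symbol in the platform annotation was one of these 5. That gave 8 of 4653 probe sets, 4 for the endothelial and 4 for the smooth muscle genes. Of the 8, 5 were bright enough to be tested, 1 for each gene.

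The failing group held 3 arrays of myocardium from dogs labelled as having congestive heart failure (failing 1a, 1b and 2a), and the control group held 2 arrays (control 1a and 2a). On 4 of the 5 arrays, all but control 1a, the labels state that RNA of 3 dogs was pooled before labelling. Each of those arrays therefore gives an average over animals. The part of the heart, the cause of the failure, the breed, age and treatment of the dogs and the make-up of control 1a were not given in the sources used here. Nor was it stated whether failing 1a and 1b came from separate pools, and the p-values below cover the variation among the arrays alone, part of which may be technical.

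AQP1 is a water channel of the cell membrane, abundant in capillary endothelium and also in red blood cells. CDH5, or VE-cadherin, joins endothelial cells at adherens junctions and is anchored to actin through catenins. VWF is a large glycoprotein that endothelial cells store and release, and it tethers platelets and carries coagulation factor VIII. TAGLN, also called SM22, is an actin-associated protein of differentiated smooth muscle that myofibroblasts also make. LMOD1 starts actin filaments in smooth muscle, and its relative LMOD2 does so in heart muscle.

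The values were linear intensities. Every array had the same trimmed mean of 800, and the share of probe sets below 0 was 34.7% to 39.9% per array. Failing 2a stood apart from the other arrays. Its median absolute log2 difference from them was 0.81 to 0.89 over the genes tested, against 0.31 between failing 1a and 1b and 0.41 between control 1a and 2a. The 3′ to 5′ ratio of the GAPDH control probe sets, a measure of RNA integrity and labelling, was 1.42, 1.44 and 1.32 on failing 1a, 1b and 2a, against 2.15 and 2.32 on control 1a and 2a. This ratio moved with the groups. The same ratio for actin was 0.192, 0.0873 and 0.205 on the failing arrays, against 0.0899 and 0.108 on the control arrays, with overlap and a higher value on 2 of the 3 failing arrays. The part of either ratio in the results below was not tested. The number of arrays limits the precision of every comparison.

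The first question was whether transcripts of either vessel cell type differ between failing and control myocardium. AQP1, CDH5 and VWF were brighter on all 3 failing arrays than on either control array. Of the smooth muscle genes, TAGLN was dimmer on all 3 failing arrays and the tested probe set of LMOD1 was brighter on all 3. The 2 genes of smooth muscle thus lay on opposite sides of control. None of these 5 differences passed a threshold of 0.05 in limma after Benjamini-Hochberg adjustment over 2301 tested probe sets. Of all tested probe sets, 0.0869% passed, 18.3% were brighter on each failing array than on both control arrays and 11.5% were dimmer. In pooled tissue RNA, fewer cells of a type and less RNA per cell cannot be told apart.

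AQP1 has 1 probe set. Its intensity was 1479 on failing 1a, 1753 on failing 1b and 4270 on failing 2a, against 414.6 on control 1a and 1108 on control 2a. The failing values averaged 2501 ± 1538 (SD, n = 3) and the control values 761.4 ± 490.5 (SD, n = 2). The groups did not overlap, failing 2a was far above the other failing arrays, and the control arrays themselves differed by 2.67-fold. In limma its log2 fold change was 1.72 ± 0.66 (SE), a 3.29-fold difference, with a 95% interval of 0.06 to 3.38. The unadjusted p was 0.0449 (limma adjusted p = 0.516). A share of 6.13% of tested probe sets was higher at an unadjusted p under 0.05. The value depended on which arrays were used, with a log2 fold change of 1.25 when failing 2a was left out, 1.01 when control 1a was and 2.43 when control 2a was.

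Since red cells also carry AQP1, hemoglobin transcripts were set beside it. HBA1, the alpha chain gene, had intensities of 2280, 2657 and 3365 on the failing arrays, against 4297 and 1856 on the control arrays, and the groups overlapped. HBB, the beta chain gene, had 3060, 1767 and 2184 at its brighter probe set on the failing arrays, against 973 and 1445 on the control arrays. Its groups did not overlap, with a log2 fold change of 0.94 ± 0.37 (SE, limma adjusted p = 0.521). Its dimmer probe set had 1046, 173 and 1427 on the failing arrays, against 772.5 and 1363 on the control arrays, and the groups overlapped. The part of red cells in the AQP1 values was not tested.

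CDH5 has 2 probe sets, and they did not go the same way. At the brighter one, intensities were 311.1, 548.5 and 283.7 on failing 1a, 1b and 2a, against 34.5 and 137.7 on control 1a and 2a. The failing arrays averaged 381.1 ± 145.6 (SD, n = 3) and the control arrays 86.1 ± 72.9 (SD, n = 2). The groups did not overlap, but the control arrays differed by 3.99-fold and control 1a was close to the floor of 20 to which intensities were raised before the log. This gave a log2 fold change of 2.40 ± 1.12 (SE), with a 95% interval of −0.41 to 5.21 and a limma adjusted p of 0.582. It was 1.40 without control 1a, 3.40 without control 2a and 1.64 with a floor of 100. Testing required a mean log2 intensity of 7.13 over the 5 arrays, and CDH5 reached it through its failing arrays, with group means of 8.51 in failing and 6.11 in control myocardium. A probe set that passes in this way had to differ between the groups, so the difference is not independent of the filter.

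The other CDH5 probe set was below 0 on every failing array, with −141.5, −96.4 and −169.8, against −99.0 and 135.1 on the control arrays. It was too dim to be tested, and no fold is given. The statement that CDH5 was brighter in failing myocardium therefore rests on the brighter probe set alone.

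VWF has 1 probe set, of a kind (suffix s) whose probes can be shared by related transcripts. Its intensity was 1414, 1391 and 925.8 on failing 1a, 1b and 2a, against 787.0 and 576.7 on control 1a and 2a. The failing arrays averaged 1243 ± 275 (SD, n = 3) and the control arrays 681.8 ± 148.7 (SD, n = 2). Failing 2a was the lowest failing array and lay nearest to control. Its log2 fold change was 0.86 ± 0.42 (SE), a 1.81-fold difference, with a 95% interval of −0.19 to 1.91 and a limma adjusted p of 0.590. The groups overlapped after quantile normalization and after division of each array by its 75th percentile, where the log2 fold change was 0.62 and 0.66. VWF was the endothelial gene of the 3 whose control arrays differed least, by 1.36-fold.

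TAGLN was the 1 gene of the 5 that was dimmer in failing myocardium. Its intensity was 1710, 1888 and 1068 on failing 1a, 1b and 2a, against 3046 and 3048 on control 1a and 2a. The failing arrays averaged 1555 ± 432 (SD, n = 3) and the control arrays 3047 ± 1.31 (SD, n = 2). The lowest value, on failing 2a, was the farthest from control. The log2 fold change was −1.01 ± 0.34 (SE), 0.496-fold, with a 95% interval of −1.87 to −0.15. The unadjusted p was 0.0283, the smallest of the 5 genes (limma adjusted p = 0.466), and 3.35% of tested probe sets were lower at an unadjusted p under 0.05. The control arrays agreed to within 0.00087 on the log2 scale, while the median absolute difference between them was 0.42 over the tested probe sets, and 0.913% of those differed by less. With only 2 arrays such agreement says little of the spread of TAGLN among control hearts. Without failing 2a the value was −0.76, and TAGLN lay below control on all failing arrays under each of the 3 scalings tried.

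LMOD1 has 3 probe sets, and a single one gave a signal. That probe set, with the suffix r, had intensities of 2781, 2439 and 5139 on failing 1a, 1b and 2a, against 1824 and 1560 on control 1a and 2a. The failing arrays averaged 3453 ± 1470 (SD, n = 3) and the control arrays 1692 ± 187 (SD, n = 2). The groups did not overlap, and failing 2a was the highest array. The log2 fold change was 0.95 ± 0.39 (SE), a 1.94-fold difference, with a 95% interval of −0.02 to 1.93 and a limma adjusted p of 0.522. It was 0.63 without failing 2a. The other 2 probe sets lay below 0 on all 5 arrays, between −299.5 and −160.8 at the one with the suffix i and between −1682 and −291.7 at the one with the suffix s. Neither was tested, and their intensities overlapped between the groups.

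The suffix r marks probe sets for which the usual selection rules for probes could not all be met. Across the table, 22.5% of the 307 tested r probe sets were brighter on each failing array than on both control arrays and 13.0% were dimmer. For the 1111 tested probe sets with no such letter these shares were 18.0% and 11.4%. The median absolute log2 fold change was 0.74 for the r kind, against 0.51 for those with no such letter. The LMOD1 signal is thus of a kind whose log2 fold changes were larger in this data set as a whole, and the cause was not tested.

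**Figure D1:**
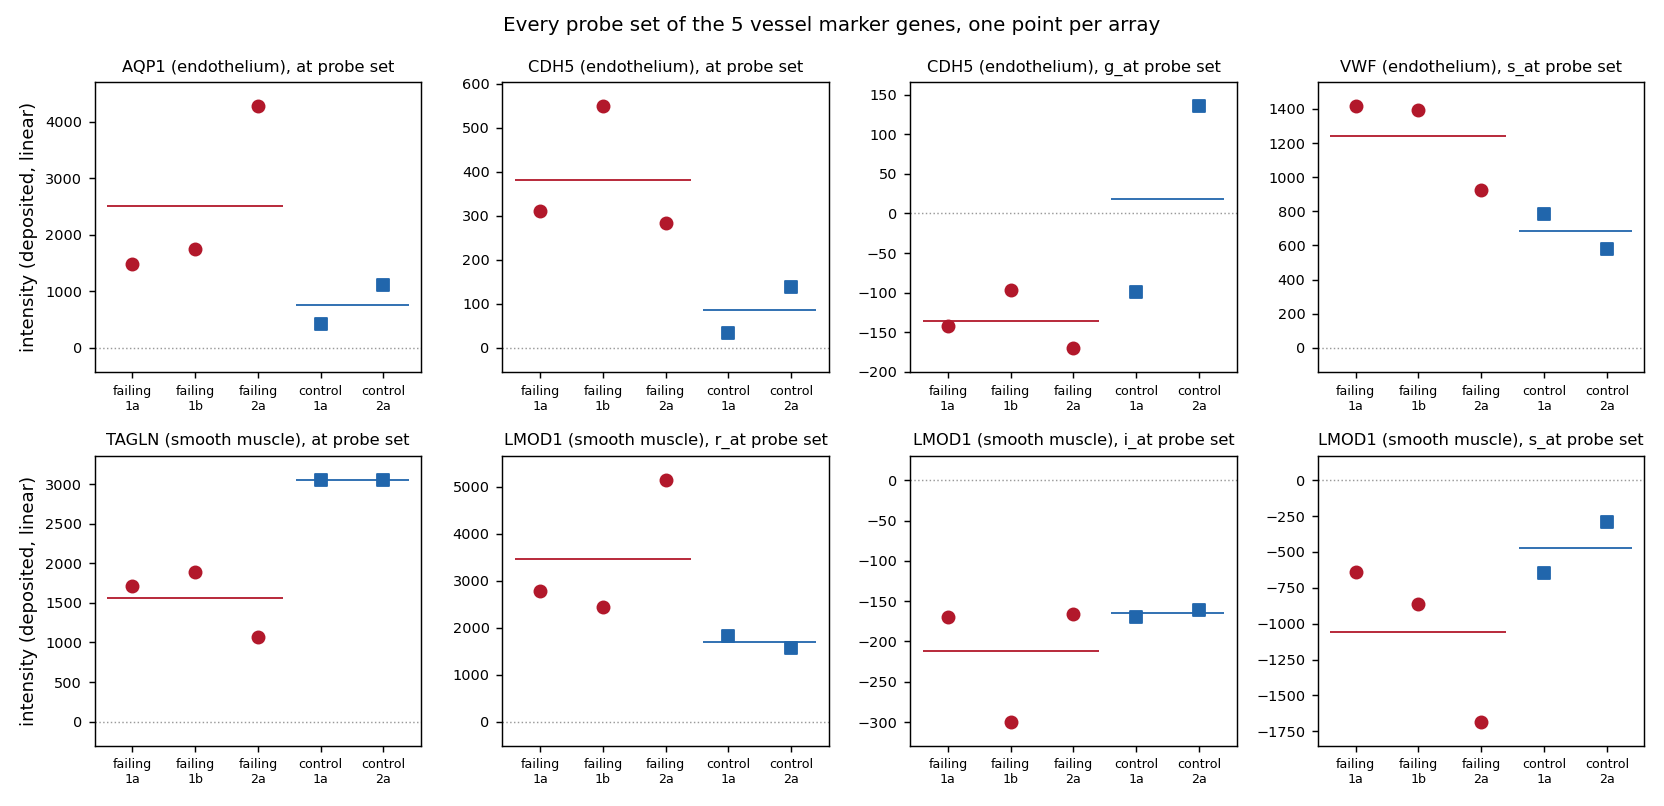
Deposited linear intensity of all 8 probe sets of the 5 genes, with 1 point for each array (red circles failing, blue squares control) and a horizontal line at each group mean. Each panel has its own scale that includes 0 (dotted). The brightest probe sets of AQP1, CDH5, VWF and LMOD1 lie higher on all failing arrays and TAGLN lies lower, while the dim probe sets of CDH5 and LMOD1 are mostly below 0.

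How far probe sets of the same gene agree bears on genes that are read through a single one. Of 357 genes with at least 2 tested probe sets, 173 (48.5%) had every tested probe set on the same side of 0. The share that unrelated probe sets would give was not worked out, and 59.6% of all tested genes lay above 0. Of 943 genes with several probe sets, 52.5% had some that were tested and some that were too dim. CDH5 and LMOD1 belong to the second kind. For AQP1, VWF and TAGLN no other probe set was there to compare. The probes were designed for human sequences, and the effect of mismatches to dog transcripts on each of them was not tested.

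Set on a common scale, as log2 intensity minus the mean of the control arrays, the 5 genes did not form 2 groups by cell type. On failing 1a, 1b and 2a AQP1 lay at 1.13, 1.37 and 2.66 and LMOD1 at 0.72, 0.53 and 1.61, so both were highest on failing 2a. CDH5 lay at 2.17, 2.99 and 2.04 and VWF at 1.07, 1.05 and 0.46, so both were lowest there. TAGLN, at −0.83, −0.69 and −1.51, was also lowest on failing 2a. Failing 2a was the highest or lowest of the failing arrays for all 5 genes, and for 87.4% of all tested probe sets. Its distance from the mean of failing 1a and 1b had a median of 0.75 over the 5 genes and 0.89 over all tested probe sets, so these genes differed from the rest little in this respect.

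**Figure D2:**
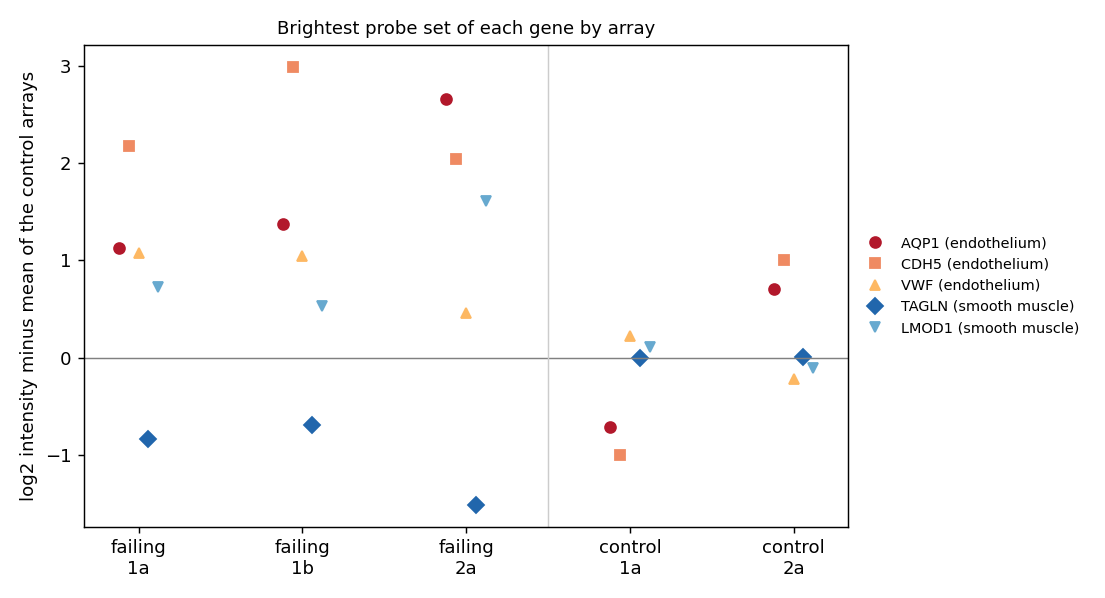
Log2 intensity of the brightest probe set of each gene minus its mean over the control arrays, by array, with the failing arrays on the left. TAGLN lies below 0 on all failing arrays and the other 4 genes lie above 0, and failing 2a is the highest failing array for AQP1 and LMOD1 and the lowest for CDH5, VWF and TAGLN.

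The contrast between the cell types depended on which smooth muscle gene stood for smooth muscle. The mean of the 3 endothelial genes lay at 1.46, 1.80 and 1.72 on failing 1a, 1b and 2a, against −0.49 and 0.49 on control 1a and 2a. That mean minus TAGLN was 2.29, 2.49 and 3.23 on the failing arrays, against −0.49 and 0.49 on the control arrays, and the groups did not overlap. With each endothelial gene brighter and TAGLN dimmer on every failing array, this difference could not overlap. The mean minus LMOD1 was 0.74, 1.27 and 0.11 on the failing arrays, against −0.61 and 0.61 on the control arrays, and the groups overlapped. CDH5, which entered the tests through its failing arrays, is the largest part of the endothelial mean on failing 1a and 1b. With AQP1 and VWF alone, the mean minus TAGLN was 1.93, 1.90 and 3.07 on the failing arrays, against −0.24 and 0.24 on the control arrays. Overlap was again not possible, for the same reason. The mean of those 2 genes minus LMOD1 was 0.38, 0.68 and −0.05, against −0.36 and 0.36, with overlap. Within smooth muscle, LMOD1 minus TAGLN was 1.55, 1.22 and 3.12 on the failing arrays, against 0.11 and −0.11 on the control arrays.

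The log2 fold changes of the 2 smooth muscle genes thus lay 1.97 apart, which was more than the 1.54 between CDH5 and VWF, the farthest pair of endothelial genes. The fold changes of VWF and LMOD1, from different cell types, differed by 0.10. No test was made of these contrasts, because the genes were chosen with results of these arrays known.

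Scaling moved the middle of the data. The median log2 fold change of all tested genes was 0.15 on the deposited scale, 0.0048 after quantile normalization of the same genes and −0.05 after scaling to the 75th percentile. Relative to that median on the deposited scale, CDH5 lay at 2.25, AQP1 at 1.56, LMOD1 at 0.80, VWF at 0.70 and TAGLN at −1.17. After quantile normalization the same order was 2.50, 1.55, 0.81, 0.62 and −1.17. No gene of the 5 changed sides under either scaling.

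Other endothelial genes were taken from a list of 31, of which 9 had a probe set and 6 were tested. All 6 had log2 fold changes above 0 on the deposited scale, as did 59.6% of all tested genes, and none passed limma's adjusted threshold, which 0.069% of all tested genes did. Their median was 0.54, against 0.15 over all 1449 tested genes. TEK and EMCN passed the filter through their failing arrays, with mean log2 intensities of 7.87 and 7.30 in failing and 6.76 and 6.87 in control myocardium, so their direction is not independent of the filter. Neither the count of 6 nor the median is therefore a measure of how endothelial genes as a class behaved. TIE1, an orphan receptor of endothelium, had 682.3, 812.2 and 1036 on the failing arrays, against 643.2 and 439.3 on the control arrays, with a log2 fold change of 0.64 ± 0.48 (SE). It was the gene of the 6 whose groups did not overlap, which held upward for 19.6% of all tested genes. FLT1, a receptor for vascular endothelial growth factor, had 552.3, 1010 and 3232 on the failing arrays, against 606.9 and 691.0 on the control arrays, so its higher mean came mostly from failing 2a.

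CD34, a surface sialomucin of endothelium and blood progenitors, had 2051, 1431 and 2571 on the failing arrays, against 1386 and 1579 on the control arrays. TEK, the angiopoietin receptor, had 215.3, 238.8 and 251.5, against 24.4 and 478.7, so the control arrays lay on both sides of the failing ones. EMCN, a mucin of capillaries and veins, had 136.6, 48.3 and 598.0, against 109.6 and 125.0. The groups of all 3 genes overlapped.

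ENG, the TGF-beta co-receptor endoglin, went both ways. Its brighter probe set had 2938, 2152 and 6162 on the failing arrays, against 3090 and 3200 on the control arrays, a log2 fold change of 0.11 ± 0.47 (SE) that turned below 0 after scaling to the 75th percentile. Its other probe set, of the r kind, had 1598, 1488 and 522.6 on the failing arrays, against 5158 and 8319 on the control arrays, a log2 fold change of −2.61 with a limma adjusted p of 0.305. PECAM1, a defining adhesion molecule of endothelium, was too dim to be tested, with 125.5, 47.1 and 180.3 on the failing arrays, against −7.7 and −20.7 on the control arrays at one probe set, where the groups did not overlap. At the other it had 188.7, 88.1 and −223.2, against −6.4 and 168.6, and the groups overlapped. CD36 and FLI1, from the same list, were also too dim to be tested. The brighter probe set of CD36 had 64.3, −96.4 and −118.9 on the failing arrays, against 80.1 and 92.1 on the control arrays. CD36 lay lower on the failing arrays without overlap at this probe set and at its dimmer one. FLI1 had 76.6, 5.4 and 106.6, against 27.4 and 129.8, with overlapping groups. With AQP1, CDH5 and VWF, 9 endothelial genes were tested. Their median log2 fold change was 0.86, and in 4 of the 9 every failing array was above both control arrays on the deposited scale, against 2 under either other scaling. Over all tested genes this held for 19.6% on the deposited scale, 14.8% after quantile normalization and 13.3% after scaling to the 75th percentile. CDH5, TEK and EMCN are among the 9, with the limit given above.

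Other smooth muscle and pericyte genes came from a list of 21, of which 10 had a probe set and 4 were tested. At their brightest probe sets all 4 had log2 fold changes above 0, with a median of 0.32, and their groups overlapped. CALD1 turned below 0 after quantile normalization. As above, none passed limma's adjusted threshold. MCAM, an adhesion molecule of pericytes, smooth muscle and endothelium, had 1724, 1490 and 1608 on the failing arrays, against 1551 and 1038 on the control arrays. SYNPO2, an actin-bundling protein of smooth and striated muscle, had 392.5, 480.8 and 1394, against 273.2 and 433.3, at its brightest probe set. A dimmer SYNPO2 probe set, not tested, went the other way without overlap, with 52.2, 79.0 and −173.5, against 152.2 and 226.3. At its dimmest the groups overlapped. CALD1, the actin-binding protein caldesmon, had 100.4, 150.4 and 555.2, against 160.0 and 168.3, at its brighter probe set. The other CALD1 probe set, not tested, was lower on the failing arrays without overlap, with −162.8, −18.2 and −189.5, against 34.3 and −14.8. TPM2, a tropomyosin of several muscle types, had 3165, 2935 and 5254, against 2895 and 3196, at its brightest of 6 probe sets, which is of the r kind. Of the 5 TPM2 probe sets tested, 3 had a log2 fold change above 0 and 2 below, and failing 2a was the lowest failing array at 4 of the 6. Both of those below had 1 failing array under the floor, so the size of their change depends on the floor. Their mean intensities were close, 1630 in failing and 1525 in control myocardium at one and 780.9 and 787.5 at the other. Among those above 0, 1 had control 2a under the floor. At the brightest probe sets of SYNPO2, CALD1 and TPM2 failing 2a was the highest array by a wide margin.

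Several defining markers of smooth muscle and pericytes were near or below 0. ACTA2, smooth muscle alpha-actin, had 120.8, −218.1 and −708.9 on the failing arrays, against −21.5 and 76.6 on the control arrays. CNN1, the actin-binding protein calponin, was below 0 on all arrays, with −767.7, −519.4 and −892.5, against −218.0 and −391.7. PDGFRB, a growth factor receptor of pericytes, was below 0 on all arrays as well. MYH11, smooth muscle myosin, was on the list but had no probe set under its symbol. ACTA2 and CNN1 thus gave too little signal at these probe sets to bear on the smooth muscle label of TAGLN and LMOD1. A value below 0 does not show that a transcript was absent. MYH7, a listed heart muscle marker named here after its values were seen, was below 0 on all 5 arrays at its dimmer probe set. Its other probe set was above 0 on failing 1a and 1b alone. Of the endothelial markers, TIE1, CD34, FLT1, TEK, EMCN and ENG were above the floor on all 5 arrays at their brightest probe set. The same held for MCAM, SYNPO2, CALD1 and TPM2 of the smooth muscle and pericyte markers. It did not hold for the endothelial markers PECAM1, CD36 and FLI1.

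**Figure D3:**
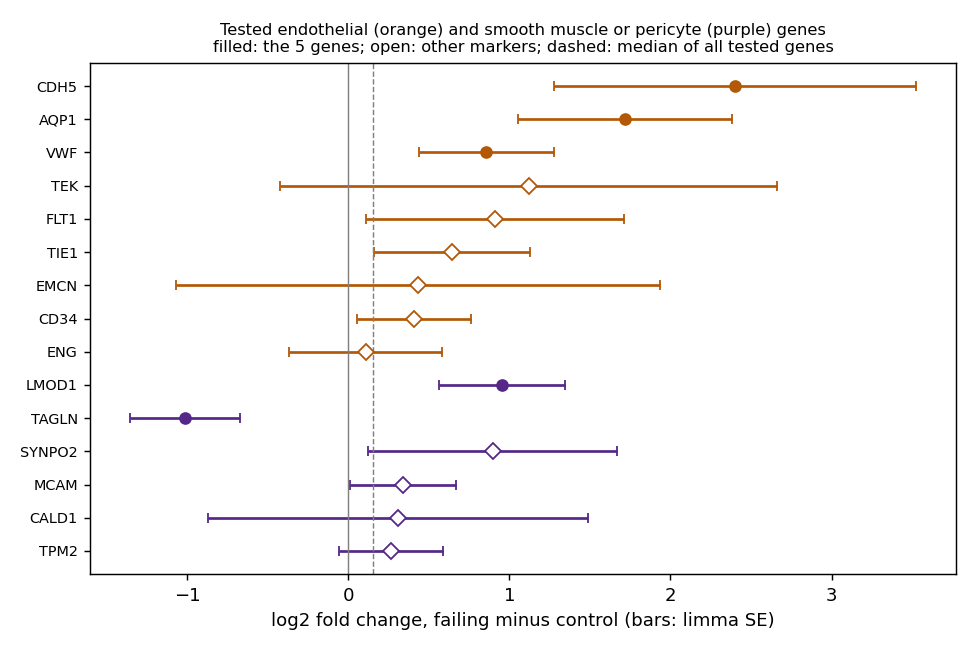
Log2 fold change of failing over control myocardium for the 9 tested endothelial genes (orange) and the 6 tested smooth muscle or pericyte genes (purple), each at its brightest probe set. Filled circles are the 5 genes described, open diamonds the other markers, bars the limma standard error, and the dashed line the median of 0.15 over all tested genes. TAGLN is the gene that lies below 0.

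The catenins that anchor CDH5 were read from 4 genes with 7 probe sets, of which 3 genes were tested. Vinculin, VCL, an actin anchor in the same list, was below 0 on all arrays. So was CTNNA1, alpha-catenin, the catenin gene that was not tested. CTNNB1, beta-catenin, had 13403, 13162 and 12368 on the failing arrays, against 8834 and 9770 on the control arrays. Its groups did not overlap and each failing array lay close to the others, with a log2 fold change of 0.48 ± 0.16 (SE), a 1.40-fold difference (limma adjusted p = 0.452). Its other probe set had 2573, 1792 and 4907, against 1797 and 1645, and the groups overlapped. JUP, or plakoglobin, had 193.8, 591.9 and 848.1 on the failing arrays, against −36.2 and 168.9 on the control arrays. Like CDH5, it passed the filter through its failing arrays (mean log2 intensity 8.85 in failing and 5.86 in control myocardium), so its lack of overlap is not independent of the filter. CTNND1, which binds the inner tail of CDH5, had 430.0, 212.1 and 2332, against 135.2 and 484.6, with overlapping groups at its brightest probe set. Its other probe sets were below 0 on all arrays. Beta-catenin and plakoglobin are also part of the junctions between heart muscle cells, so neither is particular to vessels. Of the genes for platelets and for partners of VWF, 1 of 9 had a probe set, PPBP, and it was too dim to be tested.

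Paralogs of the 5 genes were read where the table had them. LMOD2, the leiomodin of heart muscle, had 915.2, 732.7 and −240.3 on the failing arrays, against 660.9 and 836.7 on the control arrays, and so did not go with LMOD1 on failing 2a. AQP7, a channel for water and glycerol, had 1100, 1208 and 3567, against 1361 and 279.7, at its brighter probe set. There failing 2a was highest as for AQP1, and the groups overlapped. The other AQP7 probe set was below 0 on all arrays, with failing 2a the lowest failing array. AQP4 was too dim to be tested, with −12.4, 43.4 and 331.3, against −30.7 and 13.9, and its groups overlapped. TAGLN2 lay below 0 on all arrays at both of its probe sets.

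Markers of other cells were read as well, and none of those tested passed limma's adjusted threshold, which 0.069% of all tested genes did. Among 8 tested fibroblast markers 7 had log2 fold changes above 0, against 59.6% of all tested genes, with a median of 0.65, against 0.15 over all tested genes. In 3 of the 8 every failing array was above both control arrays, as in 19.6% of all tested genes. Their summed intensity was 7778 to 9532 on the failing arrays, against 4090 to 5584 on the control arrays. Among 11 tested markers of heart muscle cells 6 lay above 0 and 5 below, with a median of 0.02. In 3 of the 11 every failing array was above both control arrays and in 4 every one was below both, against 19.6% and 11.8% of all tested genes. Their summed intensity was 144417 to 166743 on the failing arrays, against 176674 to 183759 on the control arrays. Such sums are weighted to the brightest genes of a list and are no measure of the list as a whole. None of the 5 leukocyte genes with a probe set was bright enough to be tested. The part of these cells in the vessel gene values was not tested.

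Genes whose pattern over the 5 arrays was closest to each of the 5 were found by the root mean square distance between log2 intensities, each centred on its own mean, among 1891 other tested probe sets. For TAGLN these were ADSS1, an enzyme of purine nucleotide synthesis in muscle, the ATP synthase gene ATP5MC1 and TXNIP, which binds thioredoxin, at distances of 0.09, 0.12 and 0.16 against a median of 0.95. ADSS1 had 308.7, 296.3 and 199.1 on the failing arrays, against 550.7 and 535.3 on the control arrays, so it too was level on the control arrays and lowest on failing 2a. For LMOD1 they were the growth factor gene IGF2, the small heat shock protein gene HSPB7 and N4BP2L1, at 0.06, 0.09 and 0.10 against a median of 0.76. HSPB7 had 5382, 4097 and 8794 on the failing arrays, against 2943 and 2709 on the control arrays.

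For VWF the closest were the orphan receptor gene GPRC5B, TAX1BP3 and the muscle gene KLHL41, at 0.05, 0.09 and 0.12 against a median of 0.78. GPRC5B had 8152, 8074 and 5564 on the failing arrays, against 4909 and 3602 on the control arrays. For AQP1 they were MBP, TIMM44 and TMBIM6 at 0.21 to 0.31 against a median of 1.17. For CDH5 they were the lysophosphatidic acid receptor gene LPAR4, the translation factor gene EIF1 and the collagen gene COL3A1, at 0.45 to 0.51 against a median of 1.48. COL3A1 had 1560, 1593 and 1343 on the failing arrays, against 232.7 and 365.2 on the control arrays. None of the other 4 genes was among the closest of any. Of all pairs among the 5, VWF and LMOD1 were closest, at a distance of 0.59, and CDH5 and TAGLN farthest, at 1.80. With 5 arrays, many genes can share a pattern, and these distances are descriptions.

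Across 16 other ways of processing or choosing arrays, the direction of AQP1, VWF, TAGLN and LMOD1 stayed as described, and likewise that of CDH5 in the 15 in which it was tested. Most of these could not have changed it. As the groups of all 5 genes did not overlap, leaving out 1 array or averaging failing 1a and 1b could not reverse a direction. Changes of the filter, the variance trend or the unit of testing left each log2 fold change as it was. The log2 fold change ranged from 1.01 to 2.43 for AQP1, from 1.40 to 3.40 for CDH5, from 0.62 to 1.08 for VWF, from −1.22 to −0.76 for TAGLN and from 0.63 to 1.16 for LMOD1. None of the 5 passed limma's adjusted threshold in any of them, with the lowest adjusted p at 0.165, for TAGLN without failing 2a.

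**Figure D4:**
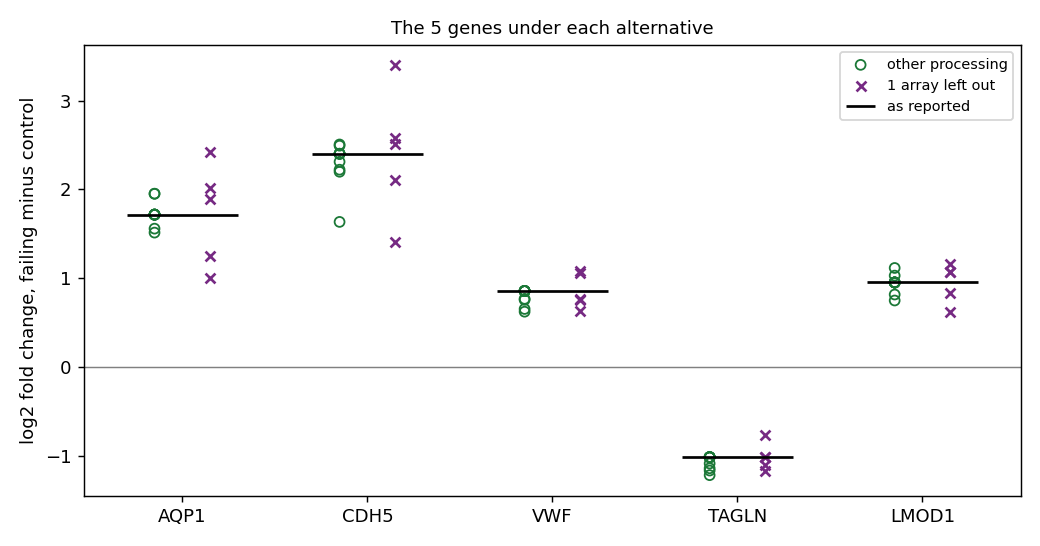
Log2 fold change of failing over control myocardium for each of the 5 genes as reported (black line), under other processing (green circles) and with 1 array left out (purple crosses). TAGLN stays between −1.22 and −0.76 and the other genes stay above 0, with the widest range, 1.40 to 3.40, for CDH5.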

How the data were processed

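Expression was measured on 5 oligonucleotide arrays, 1 per sample, grouped by the condition in the titles into 3 failing and 2 control samples. In the table deposited by the authors, each probe set has a linear intensity on each array. Scanner software, background treatment and normalization are not given in the sources used here. The values show that each array's mean is 800 once 2% of probe sets are trimmed at either end, and no further scaling was applied. Of 4653 probe sets, 52 array controls were left out of tests. Genes were named from the platform annotation, in which 3724 probe sets had 1 symbol, 72 several and 805 none. Values under 20 were set to 20 (the floor) before taking log2. Where an array fell below it, the size of a change depends on the floor and no fold is printed. A probe set entered the tests if its mean log2 intensity reached the median of 7.13 (an intensity of 140.1), which left 2301. Failing and control arrays were compared two-sided with limma 3.58.1 in R 4.3.3, using lmFit and eBayes with a trend on intensity, and Benjamini-Hochberg adjustment over all 2301 and a threshold of 0.05. Probe sets rather than genes were tested because the 5 genes were chosen by probe set. For lists, a gene was represented by its brightest tested probe set, which gave 1449 genes, and lists were described by counts and medians without a set test. The fit was tested on simulated data. The 5 genes, the lists and the rule for named genes (all probe sets of the 5, all tested genes of the vessel, catenin, platelet, red cell and paralog lists, and the 3 closest patterns per gene) were chosen with earlier results of these data known. Of the listed cell type markers, those of adipocytes and of mesothelium and nerve gave 2 and 0 tested genes and are not described. The titles share the numbers 1 and 2 between groups, with no statement of what they mean.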

Additional observations from a re-analysis of the deposited data

How the results depend on the processing

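The alternatives changed the floor, the transform, the scaling, the filter, the unit of testing, the variance trend and the arrays used, 16 in all and 1 added later. The number of probe sets called among all those tested was 2 as reported, CST3 and a probe set without a gene symbol, both named after their values were seen. It was 0 with a floor of 1, with an asinh transform, with a filter at the 75th percentile of intensity, with failing 1a and 1b averaged and with the replicate block. It was 1 with the brightest probe set per gene, 4 with a floor of 100, and 6 both without the filter and without the intensity trend. Leaving out 1 array gave 0 to 21, the highest without failing 2a. The counts at an unadjusted p under 0.05 were 218 as reported and 144 to 374 over the alternatives, with 144 when failing 1a and 1b were averaged, 344 without the filter and 374 without failing 2a. The median log2 fold change of all tested genes turned to −0.052 after scaling to the 75th percentile. With CDH5 left out, an alternative added after seeing the data, the endothelial mean minus TAGLN was 2.30 (2.67 as reported) and minus LMOD1 0.33. The endothelial mean minus LMOD1, 0.71 as reported, was 0.10 without control 1a and 1.31 without control 2a. CDH5 did not pass the 75th percentile filter and gave no value there. A check of whether the numbers 1 and 2 in the titles pair the samples gave a correlation of deviations of 0.04 over 2301 probe sets. With 1 control array for each number this is a single correlation, so it cannot decide whether the samples are paired. With these numbers as a replicate block the log2 fold change was 1.95 for AQP1 and −1.08 for TAGLN (limma adjusted p = 0.195 and 0.290). The count at an unadjusted limma p under 0.05 was then 315. The cause of these changes was not tested. Signal close to 0 limits CDH5, PECAM1, ACTA2 and CNN1.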
